A study of Mus musculus with 21 samples.

Results

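The 8 genes described here make, sense or export cholesterol. Sqle, Mvk and Pmvk encode enzymes of the synthetic pathway, Insig1 and Srebf2 belong to its sterol-sensing control, and Nr1h3, Abca1 and Abcg1 form the receptor and transporter arm of efflux. They were chosen by symbol, as every probe set annotated to 1 of them, which gave 13 of 45101 probe sets and 8 of the 18194 genes with a probe set of their own. None of the 8 is a lipoprotein receptor, so uptake is covered below only through other genes of the pathway.

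The study profiled RNA from cultures of aortic smooth muscle cells, taken from C57BL/6J males aged 10 to 12 weeks and grown with 10% fetal calf serum, and its title concerns joint signalling through a TNF receptor and LTBR. The cells received 10 µg/ml of antibody to LTBR (anti-LTBR), 1 ng/ml of TNFalpha (TNF), both agonists, or PBS alone as the control. LTBR, the lymphotoxin beta receptor, is a member of the TNF receptor superfamily. At 24 h there were 4 anti-LTBR arrays, 4 TNF arrays, 3 arrays of the combination and 4 control arrays, and at 2 h and at 6 h there was 1 array each of anti-LTBR, TNF and control. The labels number the arrays 0 to 3 at 24 h, the combination has the numbers 1 to 3, and the earlier arrays all have the number 0. Whether a number marks its own culture or animal is not said in the labels. The p-values below therefore reflect the spread between arrays, which may be technical, and the number of arrays limits the precision.

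Cells hold their free cholesterol within narrow limits. When membrane sterol is low, SREBP-2, the product of Srebf2, is released from the endoplasmic reticulum and raises transcription of the synthetic enzymes, while INSIG proteins hold it back when sterol is plentiful. When sterol is high, oxysterols activate the liver X receptors (LXR), which induce the ABC transporters that pass cholesterol to lipoproteins; in the artery wall this balance bears on whether smooth muscle cells load lipid.

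Signals are the deposited linear intensities, already scaled to a common trimmed mean on every array. The smooth muscle markers Acta2 and Tagln were above the array median on all 15 arrays at 24 h, at signals of 16442 to 19662 and 10305 to 15455. The arrays numbered 0 stood apart in Myh11, in most endothelial markers and in the macrophage markers Lyz2 and Cd14. Myh11, a smooth muscle myosin, was at 111 to 152 on them and at 529 to 3338 on the arrays numbered 1 to 3. The other smooth muscle markers overlapped. The summed signal of the 7 was 34782.5 (anti-LTBR), 35900.3 (TNF) and 36905.5 (control) on number 0, within the 30176.7 to 47136.4 of the others. Kdr, Cldn5 and Erg overlapped among the endothelial markers. The summed signal of 10 endothelial markers was 20284 (anti-LTBR), 21295 (TNF) and 20097 (control) on the number 0 arrays, against 1526 to 3834 on the others. Lyz2 was at 235.9 to 271.9 on number 0 and at 307.7 to 1812.5 on the others. Cd14 was at 135.5 to 186 and at 257.6 to 476.1, and the other macrophage markers overlapped. In RNA from whole cultures, fewer cells of a type and less RNA per cell cannot be told apart. Since the combination has no array numbered 0, the combination is also given over the arrays numbered 1 to 3, in the fit with the block.

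Among the 8 genes, Abca1 moved with both agonists. On the brightest of its 3 probe sets the signal was higher on each of the 15 treated arrays than on the control array of the same time and number, a pattern that 1.33% of the 12446 tested genes showed. Several of these differences share a control array. At 24 h the difference was 0.32 ± 0.06 on the log2 scale with anti-LTBR, 0.31 ± 0.06 with TNF and 0.58 ± 0.07 with the combination (SE, array number as a block), which is 1.249-fold, 1.238-fold and 1.498-fold. Pmvk was lower with the combination, by -0.55 ± 0.15. The other 6 genes had no called difference from control under either fit.

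The Abca1 and Pmvk differences above are those of the fit with the block, an alternative chosen after seeing the data. In limma without the block, none of the 8 genes was called (adjusted p under 0.05) in any of the 5 comparisons at 24 h. The calls over all 12446 genes in that fit were 0.129% for anti-LTBR against control, 0.337% for TNF against control and 2.46% for the combination against control, and 0.0482% and 0.362% for the combination against TNF and against anti-LTBR. At an unadjusted p under 0.05 that fit gave 0 of 8 for anti-LTBR, 0 for TNF and 2 for the combination against control (Pmvk and Abca1), and 0 for the combination against either single agonist. Arrays of the same number deviated together (median correlation 0.63), so the number was also fitted as a block. With it, 1 of 8 genes was called for anti-LTBR against a background of 4.76%, 1 of 8 for TNF against 5.94%, and 2 of 8 for the combination against 19.5%. For the combination against TNF and against anti-LTBR it was 1 of 8 each, beside 6.77% and 5.63%. The median log2 difference of the 8 genes with the block was -0.01 for anti-LTBR, 0.03 for TNF and 0.08 for the combination, where all tested genes had medians of -0.01, -0.02 and 0.00.

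**Figure D1:**
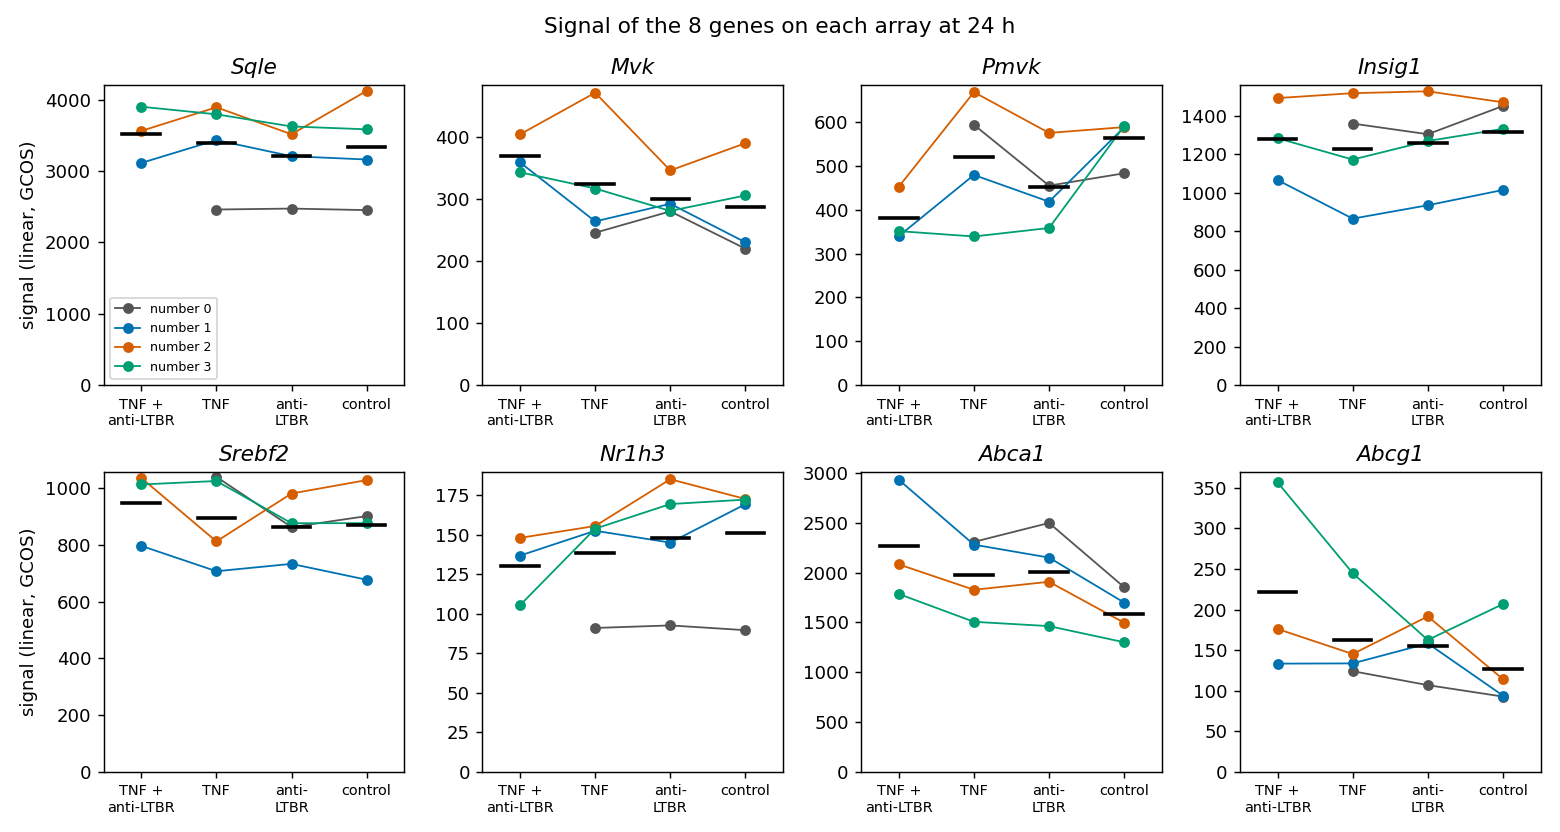
Signal (linear, vertical axis from 0) of each of the 8 genes on the 15 arrays at 24 h, by group, with treated groups left of control. Points of one colour share an array number and are joined, and black bars are group means; Abca1 was higher than control in 11 of 11 same-numbered comparisons, while Sqle and Insig1 followed the array number.

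The synthetic enzymes came first in the pathway and showed 1 change. Sqle encodes squalene epoxidase, which adds oxygen to squalene and is among the rate-limiting steps (chromosome 15, 59315092 to 59331193, GRCm38.p6 throughout). Its signals were 2475.0, 3209.6, 3517.5 and 3626.9 with anti-LTBR, 2461.8, 3435.5, 3895.8 and 3797.4 with TNF, 3114.8, 3564.2 and 3903.6 with the combination, and 2453.3, 3163.4, 4125.7 and 3586.6 in controls, in the order of the array numbers. The groups overlapped throughout, and in the 3 groups that have a number 0 array it was the lowest. With the block the log2 difference was -0.04 ± 0.05 for anti-LTBR, 0.03 ± 0.05 for TNF and -0.03 ± 0.06 for the combination, whose 95% interval ran from -0.16 to 0.09. The combination gave -0.04 over the arrays numbered 1 to 3.

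Mvk encodes mevalonate kinase, which phosphorylates mevalonate (chromosome 5, 114444264 to 114460591). Signals were 280.5, 292.8, 346.6 and 281.2 with anti-LTBR, 246.0, 264.3, 472.1 and 317.4 with TNF, 359.6, 404.9 and 343.6 with the combination, and 220.2, 230.5, 390.6 and 306.2 in controls. All groups overlapped. Each of the 3 combination arrays and each of the 4 TNF arrays lay above the control of its number, as for 24.2% and 10.5% of tested genes. The log2 difference for the combination was 0.30 ± 0.13 with the block (limma, adjusted p = 0.130) and 0.39 ± 0.22 without it (adjusted p = 0.574). Over the arrays numbered 1 to 3 it was 0.28 (adjusted p = 0.199). A second Mvk probe set gave 0.05 ± 0.17 for the combination and -0.04 ± 0.16 for TNF with the block.

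The window of 250 bases before the Mvk start in the RefSeq promoter table (GRCm38.p6, chr5:114444019-114444268, plus strand) is shown because it holds CCAAT boxes, letters that the factor NF-Y binds beside SREBP in sterol-regulated promoters. Capitals mark CCAAT or its reverse complement.
Mvk: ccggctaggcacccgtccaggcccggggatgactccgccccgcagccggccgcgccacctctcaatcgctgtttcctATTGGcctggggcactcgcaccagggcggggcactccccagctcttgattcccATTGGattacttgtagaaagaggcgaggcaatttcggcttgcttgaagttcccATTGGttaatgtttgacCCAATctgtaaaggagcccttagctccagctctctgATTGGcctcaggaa
It has 5 matches, beginning at -173, -120, -67, -50 and -14 from the start. At least 1 match stood in 33.8% of the 32851 windows of the table, and the share with 5 was not computed. The RefSeq gene begins within the last bases of this window. No sterol element core (TCACNCCA) was found in it on either strand.

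Pmvk encodes phosphomevalonate kinase, the enzyme that acts on the product of mevalonate kinase (chromosome 3, 89454541 to 89469014). Signals were 454.9, 418.3, 575.2 and 358.3 with anti-LTBR, 593.7, 479.3, 668.2 and 338.9 with TNF, 339.8, 452.6 and 351.1 with the combination, and 483.1, 588.1, 588.4 and 591.0 in controls. All 3 combination arrays lay below all 4 control arrays, as for 4.87% of genes tested, and the single-agonist groups overlapped with control. Combination cells averaged 381 ± 62.1 and control cells 563 ± 53.0 (SD, n = 3 and 4). The log2 difference was -0.55 ± 0.15 with the block (limma, adjusted p = 0.0203, 95% interval -0.88 to -0.22) and -0.56 ± 0.21 without it (adjusted p = 0.264). The call with the block was lost, at adjusted p up to 0.0976, when combination array 1 or 2 or control array 1 or 3 was left out. Over the arrays numbered 1 to 3 the difference was -0.63 (adjusted p = 0.0130).

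For anti-LTBR the Pmvk difference was -0.33 ± 0.14 with the block (limma, adjusted p = 0.213), lower in all 4 comparisons of the same number, as for 14.6% of tested genes. For TNF it was -0.15 ± 0.14 (adjusted p = 0.620), lower in 2 of 4. The combination differed from TNF by -0.40 ± 0.15 (adjusted p = 0.142) and from anti-LTBR by -0.22 ± 0.15 (adjusted p = 0.472). The order of the Pmvk means was thus control, TNF, anti-LTBR and combination from high to low, and of the differences tested only that between the combination and control passed.

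**Figure D2:**
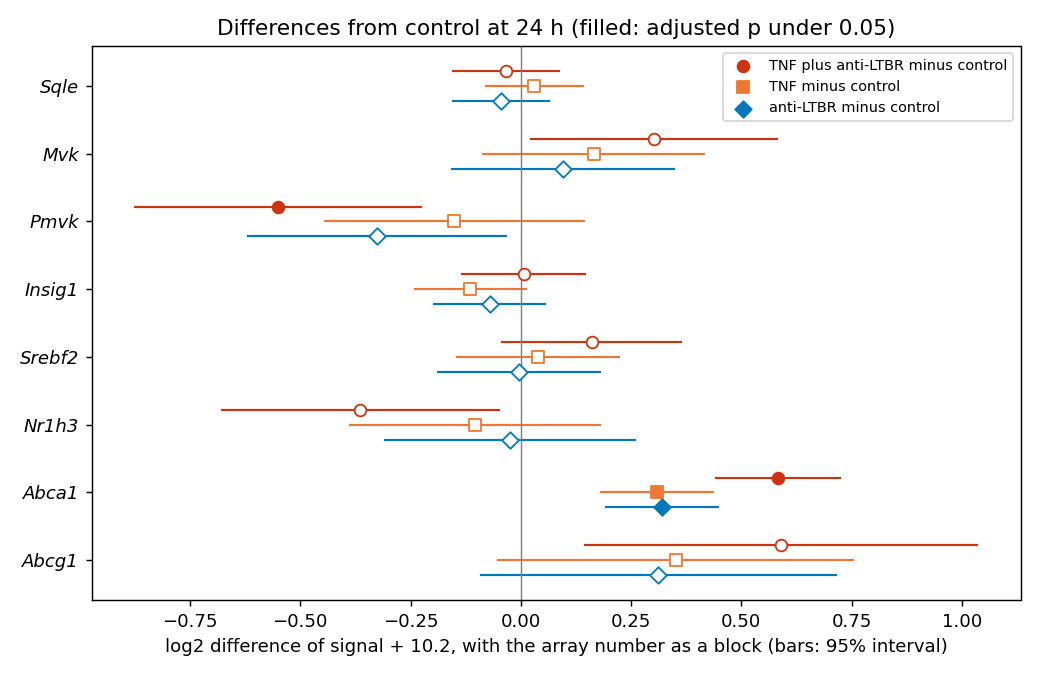
Log2 difference of signal from control at 24 h (horizontal axis) for each gene and treatment, fitted with the array number as a block, with 95% intervals as bars and filled symbols for adjusted p under 0.05. Abca1 is filled for all 3 treatments and Pmvk for the combination, at -0.55.

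The sensing genes stayed close to control. Insig1 encodes the endoplasmic reticulum protein that retains the SREBP escort when sterol is high, and is itself an SREBP target (chromosome 5, 28071412 to 28078662). Signals were 1305.1, 935.6, 1528.5 and 1269.9 with anti-LTBR, 1360.6, 865.8, 1518.7 and 1173.3 with TNF, 1066.5, 1493.3 and 1284.2 with the combination, and 1452.1, 1014.9, 1471.2 and 1333.0 in controls. The number 1 array was the lowest of every group and the groups overlapped. With the block the log2 difference was -0.07 ± 0.06 for anti-LTBR, -0.11 ± 0.06 for TNF and 0.01 ± 0.07 for the combination, the last with a 95% interval of -0.14 to 0.15. The combination gave 0.01 over the arrays numbered 1 to 3.

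Srebf2 encodes SREBP-2, the transcription factor of the cholesterol pathway (chromosome 15, 82147269 to 82205379). Signals were 862.3, 732.7, 980.7 and 876.1 with anti-LTBR, 1039.5, 706.8, 811.9 and 1024.8 with TNF, 796.2, 1035.5 and 1012.5 with the combination, and 901.1, 676.9, 1027.9 and 876.2 in controls. The groups overlapped, with all 3 combination arrays above the control of their number, as for 24.2% of tested genes. The difference for the combination was 0.16 ± 0.10 with the block (limma, adjusted p = 0.279, 95% interval -0.04 to 0.37), and 0.13 ± 0.10 on the second probe set. Over the arrays numbered 1 to 3 it was 0.15 (adjusted p = 0.353). For anti-LTBR and TNF it was -0.0044 ± 0.09 and 0.04 ± 0.09.

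The 250 bases before the Srebf2 start (RefSeq, GRCm38.p6, chr15:82147019-82147268, plus strand) are shown for a sterol element core, the letters through which SREBP-2 is known to act on its own gene in human cells. Capitals mark TCACNCCA, then the reverse complement of CCAAT.
Srebf2: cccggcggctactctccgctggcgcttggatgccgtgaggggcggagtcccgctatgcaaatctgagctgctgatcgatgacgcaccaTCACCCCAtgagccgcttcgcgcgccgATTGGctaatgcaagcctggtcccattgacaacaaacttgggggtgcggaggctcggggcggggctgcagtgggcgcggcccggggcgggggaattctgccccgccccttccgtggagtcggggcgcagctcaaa
The sterol core begins at -162, a motif with at least 1 match in 3.67% of windows, and the CCAAT box at -135. Of 8 windows that the table holds for 6 of the genes, Srebf2 had the only match to the sterol core.

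Nr1h3 encodes LXR alpha, the receptor that oxysterols activate (chromosome 2, 91184061 to 91202829). Signals were 92.6, 145.0, 185.1 and 169.4 with anti-LTBR, 91.0, 152.5, 155.5 and 153.8 with TNF, 136.8, 148.0 and 105.4 with the combination, and 89.6, 169.3, 172.6 and 172.2 in controls. The number 0 arrays were the lowest in each group that has one, and all groups overlapped. Each of the 3 combination arrays was below the control of its number, as for 25.3% of tested genes. The difference was -0.36 ± 0.15 with the block (limma, adjusted p = 0.106) and -0.17 ± 0.28 without it, where the low number 0 arrays enter only the other groups. Over the arrays numbered 1 to 3 it was -0.38 (adjusted p = 0.117). For anti-LTBR and TNF it was -0.02 ± 0.13 and -0.10 ± 0.13 with the block.

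Abca1 encodes the transporter that loads cholesterol and phospholipid onto apolipoprotein A-I, and is a classical LXR target (chromosome 4, 53030789 to 53159988, minus strand). Signals were 2497.4, 2149.7, 1907.1 and 1462.0 with anti-LTBR, 2307.4, 2279.4, 1826.6 and 1505.2 with TNF, 2930.4, 2081.3 and 1784.4 with the combination, and 1852.6, 1698.1, 1495.8 and 1300.0 in controls. The number 0 array was the highest of each group that has one, the number 3 array was the lowest of every group, and the groups overlapped. Within a number, every treated array exceeded its control. Same-numbered log2 differences were 0.43, 0.34, 0.35 and 0.17 with anti-LTBR, 0.32, 0.42, 0.29 and 0.21 with TNF, and 0.78, 0.47 and 0.45 with the combination. Every pair was higher for 12.1%, 10.5% and 24.2% of tested genes in the 3 comparisons.

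In limma with the block, adjusted p was 0.00748 for anti-LTBR, 0.00758 for TNF and 3.01e-05 for the combination. Without the block the log2 differences were 0.32 ± 0.19, 0.31 ± 0.19 and 0.49 ± 0.21, and adjusted p was 0.999, 1.00 and 0.366. The 3 calls with the block held when any 1 of the 15 arrays was left out, with the largest adjusted p at 0.0458, 0.0374 and 0.000293. Over the arrays numbered 1 to 3 the differences were 0.29 (adjusted p = 0.0694), 0.31 (adjusted p = 0.0355) and 0.57 (adjusted p = 0.000213), so the anti-LTBR call missed the threshold there.

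Between the combination and each single agonist the Abca1 call depended on the setting. The combination averaged 2265 ± 595 (n = 3), TNF 1979.7 ± 385 and anti-LTBR 2004 ± 435, and control 1587 ± 241 (SD, n = 4 each). With the block the combination exceeded TNF by 0.27 ± 0.07 (limma, adjusted p = 0.0242) and anti-LTBR by 0.26 ± 0.07 (adjusted p = 0.0345), in 3 of 3 same-numbered comparisons each. Both calls were lost over the arrays numbered 1 to 3 (0.26, adjusted p = 0.0623, and 0.29, adjusted p = 0.0511) and on arrays scaled to equal medians (adjusted p = 0.131 and 0.230). The call against TNF was lost without any 1 of the TNF arrays or without combination array 1 or 3, at adjusted p up to 0.148. The call against anti-LTBR was lost without combination or anti-LTBR array 1 or 3, at adjusted p up to 0.199. Without the block the 2 differences were 0.18 ± 0.21 and 0.17 ± 0.21 (adjusted p = 0.998 each).

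The 3 Abca1 probe sets did not give the same values. The brightest stands for the gene above. The second, at 251 to 558, gave 0.24 (adjusted p = 0.259) for anti-LTBR, 0.14 (adjusted p = 0.564) for TNF and 0.60 (adjusted p = 0.00233) for the combination, in limma with the block over all passing probe sets. On this probe set the combination differed from TNF by 0.46 (adjusted p = 0.0337) and from anti-LTBR by 0.36 (adjusted p = 0.105). The third, at 128 to 286, gave 0.47, 0.14 and 0.40, none called (adjusted p = 0.163, 0.744 and 0.175). There the combination differed from TNF by 0.26 (adjusted p = 0.499) and from anti-LTBR by -0.07 (adjusted p = 0.899). The fitted differences from control at 24 h were positive on all 3 probe sets. The combination was called against control on 2 of them, and against anti-LTBR on 1. Single arrays below the control of their number occurred on the 2 dimmer probe sets. On the second they were TNF arrays 2 and 3 (-0.034 and -0.032) and anti-LTBR array 3 (-0.095). On the third they were TNF arrays 0 and 3 (-0.081 and -0.110) and combination array 3 (-0.062).

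Macrophages, which export cholesterol through Abca1, were checked by 10 markers. Their summed signal was 1226 to 3358 with anti-LTBR, 1256 to 3689 with TNF, 1684 to 4653 with the combination and 1506 to 4552 in controls. The lowest sums with anti-LTBR, with TNF and in controls were on the number 0 arrays, which the combination lacks. Over the arrays numbered 1 to 3 these 3 groups had sums of 1649 to 3358, 2179 to 3689 and 1674 to 4552. Of 6 markers tested, limma called 0 for any treatment against control, with or without the block, and 0 at an unadjusted p under 0.05 without it. Itgam, Fcgr1, Ptprc and Cx3cr1 were above the array median on 0 of 15 arrays, whereas Csf1r, Lyz2 and Cd14 were above it on all 15. Some smooth muscle markers were called lower with each treatment in limma with the block. Of 7 tested, Lmod1 and Smtn were called lower with anti-LTBR (median log2 difference of the 7 -0.30), Cnn1, Lmod1, Myh11 and Smtn with TNF (median -0.37), and these 4 and Tagln with the combination (median -0.54). Of the 7, 1 was higher with TNF (0.75) and 1 with the combination (0.66), neither called. Over all genes 4.76%, 5.94% and 19.5% were called in either direction in these comparisons, the last made up of 9.1% higher and 10.4% lower. Without the block the counts were 0, 0 and 1. The summed signal of the 7 was 34782.5 to 40776.9 with anti-LTBR, 35900.3 to 40778.7 with TNF, 30176.7 to 39033.7 with the combination and 36905.5 to 47136.4 in controls. Among markers of other cells, the block gave calls for the combination alone of the 3 treatments: Dpt and Pdgfra higher among 4 tested of adventitial fibroblasts (sums over the list of 4964.5 to 10198.7, against 3864.3 to 6983.9 in controls), Erg lower among 9 endothelial markers, and Pparg, the 1 adipocyte marker tested, lower (-0.95, sums of 40.4 to 122.7 against 64.0 to 200.3). Without the block 0 of these were called for the combination, where 2 fibroblast markers, 1 endothelial and 0 adipocyte markers had an unadjusted p under 0.05. The part of these cells, macrophages included, in the differences of Abca1, Pmvk and the pathway genes below, Cyp7b1 among them, was not tested.

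The bases before the Abca1 start (RefSeq, GRCm38.p6, chr4:53159896-53160145, printed along the gene's minus strand) are shown because they hold the direct repeat that LXR and its partner RXR are known to bind in this gene. Capitals mark an E-box, CACGTG, then the reverse complement of the direct repeat, GGTNA and GGTCA set 5 bases apart.
Abca1: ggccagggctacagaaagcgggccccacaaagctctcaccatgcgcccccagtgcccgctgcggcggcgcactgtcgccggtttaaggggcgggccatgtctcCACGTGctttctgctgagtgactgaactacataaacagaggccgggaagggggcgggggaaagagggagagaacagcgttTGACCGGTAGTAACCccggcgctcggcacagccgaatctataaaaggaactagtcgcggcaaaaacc
The repeat begins at -67 and had a match in 58 of 32851 windows, or 0.177%, and in no other of the 8 windows, which cover 6 of the genes; Sqle and Abcg1 were not searched. The E-box, at -147, had a match in 6.02%. A RefSeq transcript of Abca1 starts farther upstream, inside this window. An NF-kB motif (GGG and TTCC set 3 bases apart, found in 4.65% of windows) had 0 matches in the 8 windows on either strand, which says only that these letters are not in them.

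Abcg1 encodes the transporter that passes cholesterol to high-density lipoprotein, and is likewise an LXR target (chromosome 17, 31057694 to 31117984). Signals were 106.8, 158.2, 191.5 and 162.5 with anti-LTBR, 124.0, 133.6, 145.2 and 244.8 with TNF, 133.3, 176.0 and 356.7 with the combination, and 92.7, 93.9, 114.2 and 206.7 in controls. The groups overlapped, and the number 3 array was the highest of the control, TNF and combination groups. All 4 TNF arrays and all 3 combination arrays exceeded the control of their number, as for 10.5% and 24.2% of tested genes, and 3 of 4 anti-LTBR arrays did. The same-numbered log2 differences were 0.46, 0.58 and 0.76 for the combination, 0.38, 0.47, 0.32 and 0.23 for TNF, and 0.19, 0.69, 0.70 and -0.33 for anti-LTBR.

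For Abcg1 the combination gave 0.59 ± 0.21 with the block (limma, adjusted p = 0.0631, 95% interval 0.14 to 1.04) and 0.71 ± 0.35 without it (adjusted p = 0.469). The block gave 0.60 (adjusted p = 0.0970) over the arrays numbered 1 to 3 and 0.60 (adjusted p = 0.0429) on arrays scaled to equal medians, and without the block leaving out 1 array gave 0.33 to 1.00. For anti-LTBR and TNF the differences were 0.31 ± 0.19 (adjusted p = 0.410) and 0.35 ± 0.19 (adjusted p = 0.339). Its second probe set, at 4.7 to 34.3, was below the array median on all arrays and was not tested.

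At 2 h and 6 h each group had 1 array, so values are given without a test. Abca1 signals at 2 h were 2284.0 with anti-LTBR and 2399.8 with TNF, against 1883.4 in the control, and at 6 h they were 2085.6 and 2468.1, against 1728.5. The log2 differences were 0.28 and 0.35 at 2 h and 0.27 and 0.51 at 6 h. Those of the number 0 arrays at 24 h were 0.43 with anti-LTBR and 0.32 with TNF. The second probe set was also higher on the 4 early treated arrays, by 0.36 with anti-LTBR and 0.54 with TNF at 2 h and by 0.37 and 0.40 at 6 h. The third differed by -0.19 with anti-LTBR and 0.33 with TNF at 2 h and by -0.07 and -0.18 at 6 h, so the early difference was not seen on all 3 probe sets. For Abcg1 the differences were 0.38 with anti-LTBR and -0.06 with TNF at 2 h, and 0.29 and 0.39 at 6 h.

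Past a difference of 1.5-fold there were 2 of 8 genes, both with TNF at 2 h and both lower. Pmvk was at 464.0 with TNF against 717.7 in the control (log2 difference -0.62), and Nr1h3 was at 79.6 against 147.0 (-0.81). At 6 h the same genes differed by 0.28 and -0.13. Over all tested genes, 3.05% were past 1.5-fold lower and 4.64% higher with TNF at 2 h. None of the 8 was past it with anti-LTBR at 2 h (2.9% of genes higher, 2.03% lower), with anti-LTBR at 6 h (4.03% and 1.78%) or with TNF at 6 h (7.06% and 2.71%). The nearest among the enzymes were Sqle with anti-LTBR at 2 h (2511.4 against 3271.0, -0.38) and Mvk with anti-LTBR at 6 h (307.1 against 407.1, -0.40).

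**Figure D3:**
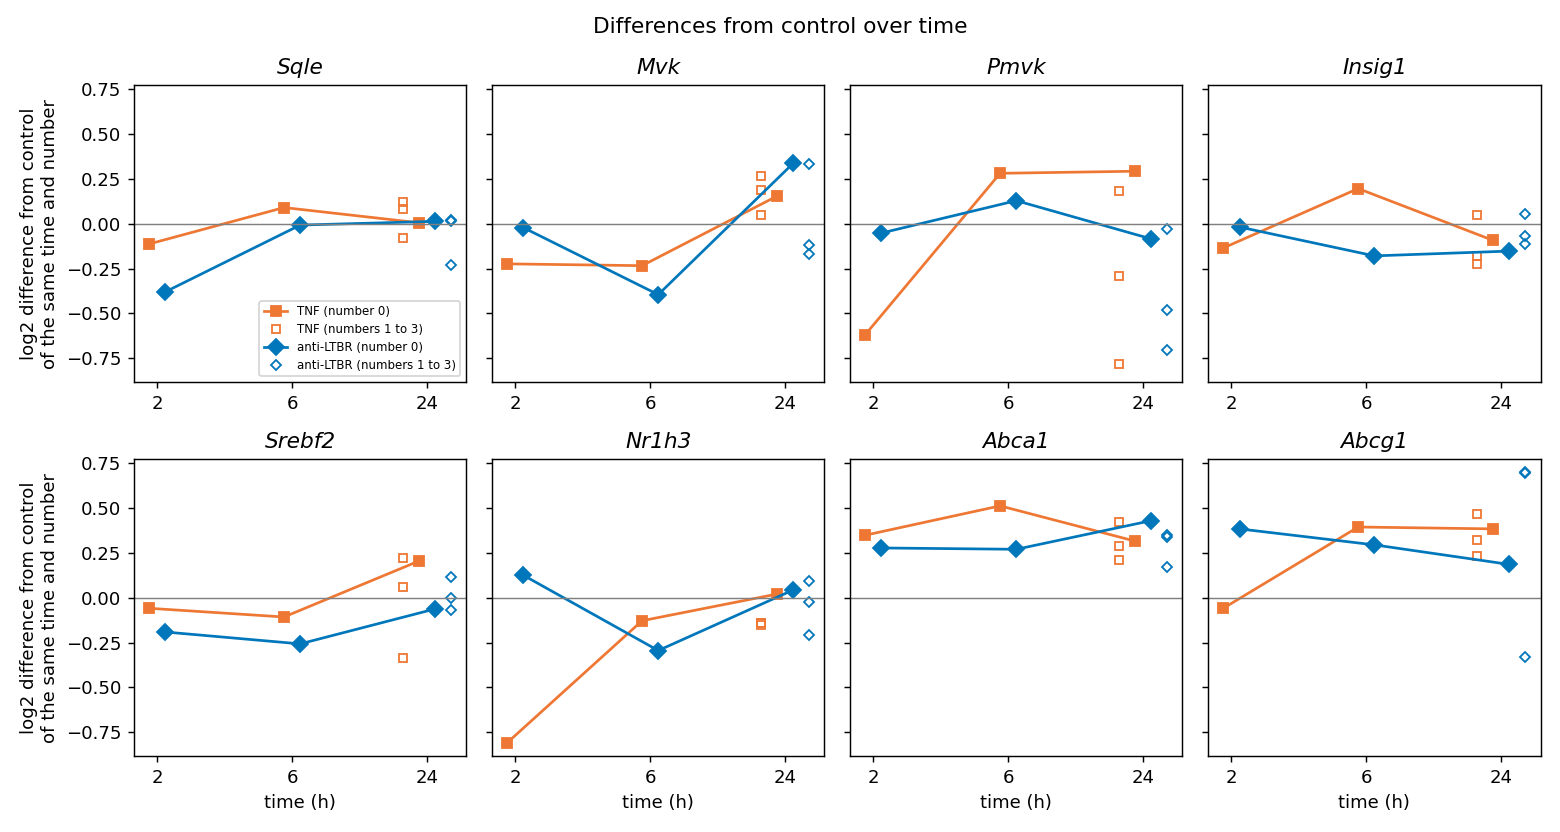
Log2 difference between each treated array and its control of equal time and number (vertical axis) at 2, 6 and 24 h, drawn at equal spacing. Lines join the number 0 arrays and open symbols are the arrays numbered 1 to 3 at 24 h; all Abca1 points lie above 0, Nr1h3 is lowest with TNF at 2 h (-0.81), and Pmvk is at -0.62 there.

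Within the controls of number 0, signals at 2, 6 and 24 h were 3271.0, 3011.7 and 2453.3 for Sqle, 1838.5, 1803.1 and 1452.1 for Insig1 and 147.0, 137.7 and 89.6 for Nr1h3. For Abca1 they were 1883.4, 1728.5 and 1852.6. With 1 array a time, the first 3 genes were lowest at 24 h and Abca1 at 6 h.

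How far the array number, rather than the treatment, set a gene's signal differed among the 8. Taken in sequence, number first and group second, the number accounted for 93.4% of the sum of squares of the log2 signals of Sqle at 24 h and for 91.3% of those of Insig1, leaving 1.57% and 3.89% between groups. For Abca1 it was 55.9% and 40.1%, and for Pmvk 35.9% and 36.9%. Mvk, Srebf2, Nr1h3 and Abcg1 had 64.3% to 76.0% between numbers and 8.99% to 17.3% between groups. The mean over the anti-LTBR, TNF and control arrays lay between 1422 (number 3) and 2219 (number 0) for Abca1, and was 91.1 on number 0 against 155.6 to 171.1 on the others for Nr1h3.

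**Figure D4:**
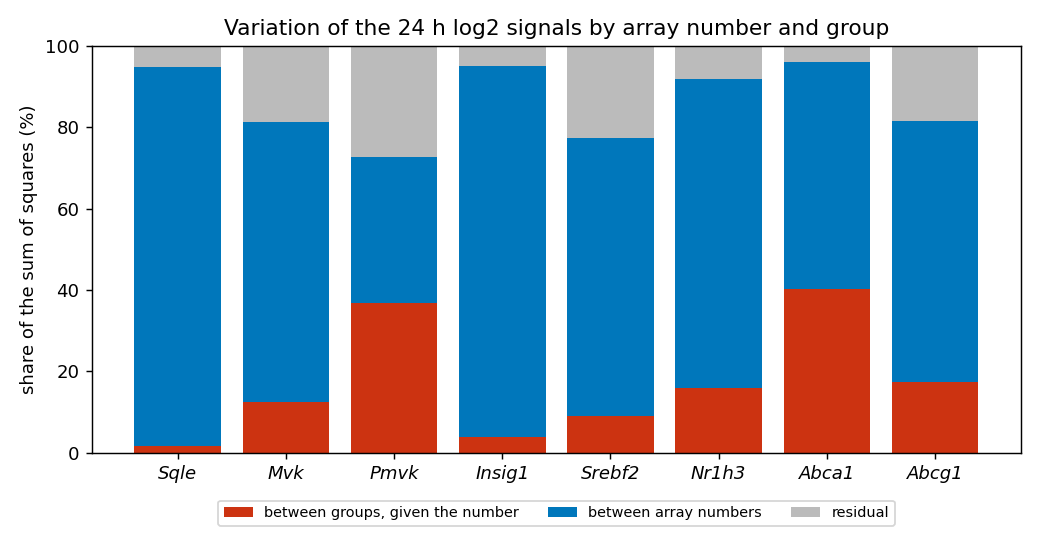
Share of the sum of squares of the 24 h log2 signals (vertical axis, percent, from 0) between groups given the number, between array numbers, and residual, for each gene over 15 arrays. Sqle and Insig1 are almost wholly between numbers (93.4% and 91.3%), and Abca1 and Pmvk have the widest group shares of the 8 (40.1% and 36.9%).

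Likeness between genes was read over the 11 treated-minus-control differences at 24 h. These share 4 control arrays, so deviations of a control array enter several differences of both genes, and what r would be with no treatment effect was not computed. Among all tested genes, those nearest to Abca1 were Phip (r = 0.92), Arrb1 (0.91) and Mfhas1 (0.90), and those nearest to Pmvk were Ufd1, Mettl9 and Micu3 (0.94 each). The genes nearest to Sqle were Chmp3 (0.96), Tmem97 (0.95) and Rpl8 (0.93), and to Abcg1 they were Tox2 (0.92), Marchf6 (0.92) and Itfg2 (0.90). These are descriptions of the best of 12446 genes over 11 points.

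Other genes of the pathway were read from 5 lists, with limma and the block for the combination against control, where 9.1% of all genes were called higher and 10.4% lower. Of 17 tested synthesis enzymes, Sqle, Mvk and Pmvk included, 2 were higher and 2 lower, with a median log2 difference of -0.01. The higher ones were Sc5d, a late sterol desaturase (0.20, adjusted p = 0.0121), and Nsdhl, a sterol dehydrogenase (0.24, adjusted p = 0.0458). The lower ones were Pmvk and Cyp51, the lanosterol demethylase, at 1249.8 ± 296 with the combination and 1476 ± 266 in controls (SD, n = 3 and 4; -0.23, adjusted p = 0.00509). Of 8 sensing genes, Mbtps1, the protease that makes the first cut of SREBP, was higher (0.27, adjusted p = 0.00726), and Srebf1, Scap and Insig2 were not called. Sc5d lost its call without combination array 2 or 3, at adjusted p up to 0.0663, and Mbtps1 without combination array 2 (adjusted p = 0.0642). Without the block 0 of the genes of these 2 lists were called, and 1, Pmvk, had an unadjusted p under 0.05. Ebp and Dhcr7 differed by 0.20 and 0.21 in that fit, and were not called with the block either.

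Of 8 tested genes of uptake and lysosomal export, Npc2, a lysosomal cholesterol carrier (0.20, adjusted p = 0.00114), and Scarb1, a receptor for high-density lipoprotein (0.24, adjusted p = 0.0479), were higher, and Vldlr, a lipoprotein receptor (-0.54, adjusted p = 0.00164), was lower. The median was -0.16. Without the block the Vldlr difference was -0.28 (adjusted p = 0.868). Scarb1 lost its call in 12 of 15 fits with 1 array left out. Mylip and Npc1 were not called with or without the block, and differed by -0.31 and -0.23 without it.

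Of 11 LXR, efflux, esterification and oxysterol genes, 3 were higher and 1 lower, with a median of 0.26. Cyp7b1 and Ch25h, enzymes that hydroxylate oxysterols and cholesterol, were among the higher ones. Their control means lay below the median signal of every array at 24 h, the lowest being 107.4, so how far controls stood above background is not known. Cyp7b1 was at 295 ± 159 with the combination and 90.2 ± 28.8 in controls (SD, n = 3 and 4), without overlap, as for 6.7% of genes tested. The log2 difference was 1.55 ± 0.20 with the block (limma, adjusted p = 1e-04) and 1.53 ± 0.34 without it (adjusted p = 0.0270). That was the single call in the 5 lists without the block, and it was lost there, at adjusted p up to 0.151, without combination array 1 or 2 or control array 0 or 2. With the block Cyp7b1 also rose with anti-LTBR (0.92, adjusted p = 0.0117) and with TNF (0.82, adjusted p = 0.0185). Ch25h was at 189.8 ± 78.0 with the combination and 92.6 ± 56.2 in controls (0.94 ± 0.22, adjusted p = 0.00732; lost without combination array 1). Apoe, the apolipoprotein that accepts exported cholesterol, was lower (-0.80 ± 0.21, adjusted p = 0.0168; lost without combination array 2 or control array 3). Without the block it was -1.56 ± 1.00 (adjusted p = 0.649), with combination arrays at 713 ± 310 and controls at 3053 ± 3556 (SD, n = 3 and 4). These means compare unlike arrays, since the controls include a number 0 array and the combination has none. Over the arrays numbered 1 to 3 the Apoe difference was -0.87 with the block (limma, adjusted p = 0.0152). Nceh1, Cyp27a1, Rxra, Rxrb and Osbp were not called.

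Of 8 genes of fatty acid synthesis and desaturation, targets of the related factor SREBP-1, 4 were higher and 0 lower with the block: Fads2 (0.72, adjusted p = 4.72e-05), Elovl6 (0.60, adjusted p = 3.74e-05), Acly (0.27, adjusted p = 0.00139) and Fasn (0.22, adjusted p = 0.0174). The median was 0.15. Elovl6, a fatty acid elongase, was at 1138 ± 134 with the combination and 801 ± 131 in controls (SD, n = 3 and 4), without overlap, as for 6.7% of genes tested. With the block Elovl6 was also higher with anti-LTBR (0.25, limma, adjusted p = 0.0352). Scd1, Scd2, Fads1 and Acaca were not called. Without the block none of the 8 was called, and 2 had an unadjusted p under 0.05. Of the 11 genes named by rule from the 5 lists and called with the block for the combination, the 8 genes aside, 11 were also called over the arrays numbered 1 to 3, with the largest adjusted p at 0.0430. Those arrays include every combination array, so this reading is not independent of the first. Nsdhl, Vldlr and Fasn, and the genes named as not called beyond the rule, were picked after their values were seen.

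**Figure D5:**
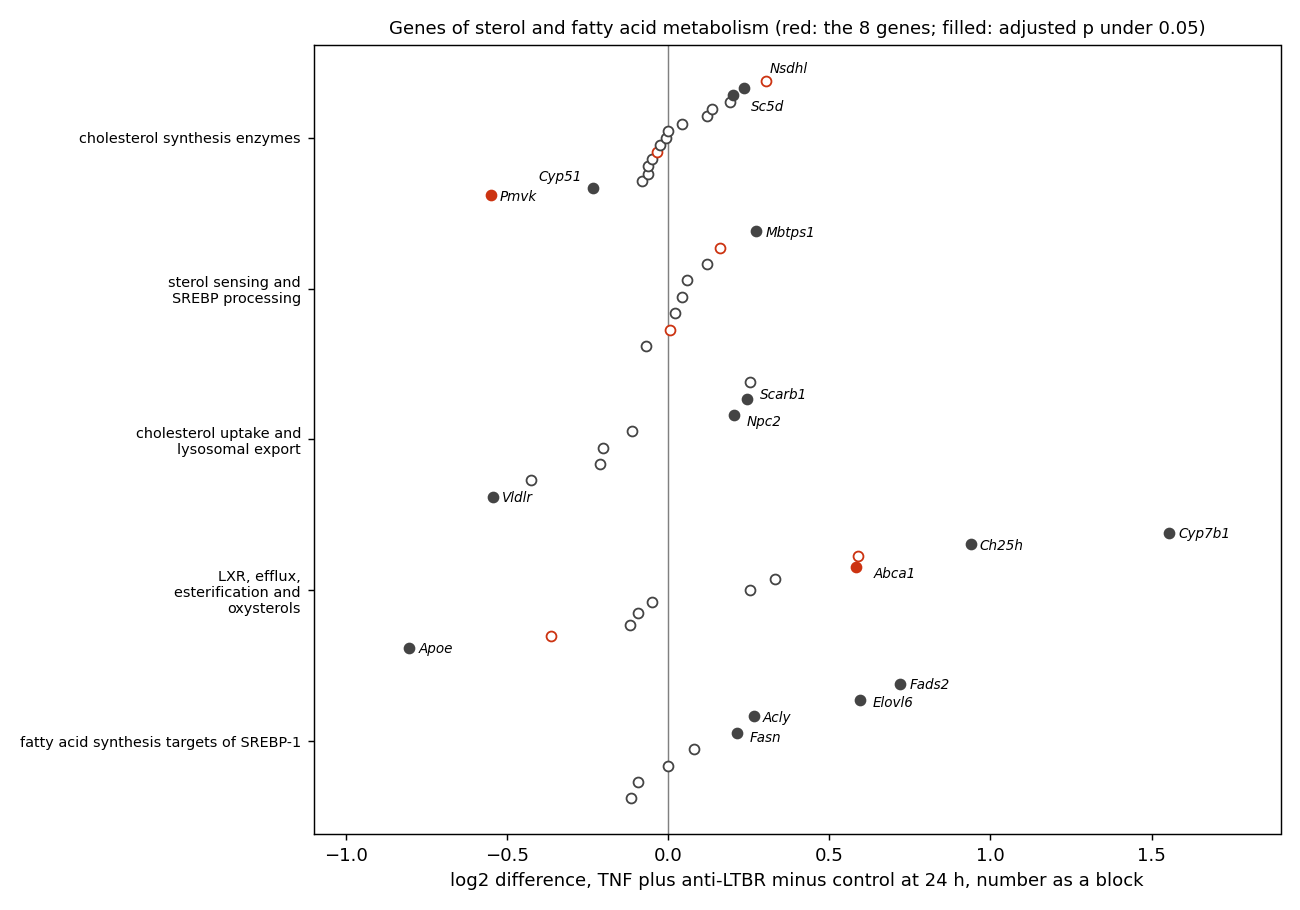
Log2 difference of the combination from control at 24 h with the array number as a block (horizontal axis) for each tested gene of the 5 lists. Red points are the 8 genes, filled points have an adjusted p under 0.05, and the synthesis list lies around 0 (median -0.01) while Cyp7b1 (1.55) and Ch25h (0.94) lie far to the right.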

How the data were processed

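Total RNA of 21 samples was measured on Affymetrix arrays of 45101 probe sets. The values used are the deposited intensities on a linear scale, made with GCOS 1.4 per the submitters' processing notes. How probes were summarized, how background was removed and whether a detection filter was used is not given in the sources used here. Without the highest and lowest 2% of probe sets the arrays already share one mean, so no further normalization was applied.

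The platform annotation named the probe sets: 34945 had 1 symbol, 932 several and 9160 none, and 64 control probe sets were left out. Only probe sets brighter than their array's median on 3 or more of the 24 h arrays, 15 in number, were tested. This left 25110, with 12 of the 13 described here. Each of 12446 genes was represented by its passing probe set of highest mean.

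Differences are on the log2(signal + 10.2) scale, 10.2 being the 10th percentile of the 24 h values, and understate those of dim genes. limma 3.58.1 (R 4.3.3) fitted all 24 h arrays jointly, with a trended prior variance; residual degrees of freedom were 11, or 8 with the array number as a block. Benjamini-Hochberg adjustment ran over all tested genes of a comparison, and a call is an adjusted p under 0.05. The fit without the block was run on simulated arrays with independent noise. That run has no bearing on the calls made with the block.

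The numbers come from the sample titles, which do not say what they mark. With group means removed, 21 same-numbered pairs of arrays correlated at 0.46 to 0.81 and 63 other pairs at -0.58 to 0.22, and for 15 of 15 arrays the closest array had the same number. The numbers were therefore taken to pair the arrays, and values with the block stand beside those without it.

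The text names every member and up to 4 further genes of each list with the smallest p in the combination without the block. Also named are list genes called without the block. The 3 genes most like each tested member over 11 differences are given for 4 members. Nsdhl, Vldlr, Fasn and further uncalled genes of the lists are named beyond this rule. The members, lists and tests were chosen with earlier results of these data known. Sequences are from RefSeq tables of GRCm38.p6, which matched 6 of the 8 genes.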

Additional observations from a re-analysis of the deposited data

Results flagged for a closer look

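Of 24 checks of a gene in a group of 4 arrays at 24 h, 3 found 1 array far from the others, where chance gives about 1 in 20. Pmvk was at 483.1 on control array 0, with the other 3 controls at 588.1 to 591.0. Nr1h3 was at 91.0 on TNF array 0 and at 89.6 on control array 0, with the other arrays at 152.5 to 155.5 and at 169.3 to 172.6. These are arrays of number 0, which also differ from the others in Myh11 and in the summed endothelial and macrophage marker signals. The part of endothelial cells, smooth muscle cells and macrophages in the values was not tested.

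In 4 of 32 comparisons of an early time with 24 h, the early array moved one way and all arrays at 24 h the other. Pmvk with anti-LTBR differed from control by 0.13 (log2) at 6 h and was lower in 4 of 4 comparisons at 24 h. Mvk with TNF differed by -0.22 at 2 h and by -0.23 at 6 h and was higher in 4 of 4 at 24 h. The second Mvk probe set gave -0.25 at 2 h and -0.33 at 6 h. At 24 h it gave -0.20, -0.30, -0.01 and 0.33, so this turn was not seen on it. Abcg1 with TNF differed by -0.06 at 2 h and was higher in 4 of 4 at 24 h. With 1 early array a group, the difference between times was not tested.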

How the results depend on the processing

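With the array number as a replicate block, genes called were 592 for anti-LTBR, 739 for TNF and 2422 for the combination against control, and 843 and 701 for the combination against TNF and against anti-LTBR; members called were 1, 1, 2, 1 and 1, against 0 in each without it. Among the 8 genes the block changed no call other than those of Abca1 and Pmvk. With the block on arrays scaled to equal medians the gene counts were 473, 486, 1785, 496 and 546, and members called against control were 1, 1 and 3. With the block on the arrays numbered 1 to 3 they were 318, 568, 2167, 607 and 508, and members called were 1 for TNF and 2 for the combination against control. Without the block, arrays scaled to equal medians gave 7, 181, 0 and 24 for anti-LTBR and the combination against control, TNF and anti-LTBR. No filter gave 8 for anti-LTBR against control and 1 for the combination against TNF, every passing probe set 36, 480 for the combination against control and 2 against TNF, and no variance trend 9 for anti-LTBR and 1 for the combination against TNF, where a pseudocount of 1 gave 3. A pseudocount of 50 left 1 gene past 1.5-fold with TNF at 2 h. Leaving out 1 array at a time gave, in the order above, 6 to 27, 21 to 50, 166 to 318, 0 to 5 and 7 to 60 genes and 0 members, and with the block, an alternative chosen after seeing the data, 288 to 677, 463 to 746, 1644 to 2583, 341 to 906 and 353 to 767 genes and 1, 1, 1 to 3, 0 to 1 and 0 to 1 members. Uncalled log2 differences turned sign as follows. For anti-LTBR, equal medians, with or without the block, gave 0.037 for Sqle, 0.010 for Insig1, 0.077 for Srebf2 and 0.051 for Nr1h3, quantile normalization 0.048 for Nr1h3, and the arrays numbered 1 to 3 0.015 for Srebf2, where TNF gave -0.017. For the combination against control, Sqle and Insig1 were -0.033 and 0.0062 with the block, -0.020 and 0.020 with the block on equal medians, and -0.037 and 0.013 on the arrays numbered 1 to 3. Sqle against TNF was -0.064 with the block, -0.096 with equal medians too and -0.076 on numbers 1 to 3; against anti-LTBR it was -0.057 with the block on equal medians, and Insig1 was -0.046 on equal medians. With 1 array left out, ranges that crossed 0 were, for anti-LTBR against control, -0.18 to 0.074 for Sqle, -0.015 to 0.25 for Mvk, -0.19 to 0.064 for Insig1, -0.12 to 0.080 for Srebf2 and -0.24 to 0.17 for Nr1h3; for TNF, -0.11 to 0.18, -0.025 to 0.32, -0.23 to 0.043, -0.076 to 0.14 and -0.32 to 0.070 for the same genes and -0.28 to 0.036 for Pmvk (with the block -0.26 to 0.0001). For the combination against control they were -0.037 to 0.21 for Sqle, -0.16 to 0.086 for Insig1 and -0.023 to 0.070 for Mbtps2 (0.0076 to 0.10 with the block). Against TNF they were -0.076 to 0.16 for Sqle, -0.081 to 0.20 for Insig1, -0.017 to 0.21 for Srebf2, -0.24 to 0.068 for Nr1h3, -0.017 to 0.34 for Abca1 and -0.025 to 0.65 for Abcg1, and against anti-LTBR -0.10 to 0.16 for Insig1 and -0.030 to 0.33 for Abca1. These ranges are without the block except where it is named. The cause of these turns was not tested. In 309 of 320 values of the 8 genes under the other settings without the block the direction was kept, and in 104 of 120 with it. Both counts include values that could not turn. Dropping the filter, testing every passing probe set or dropping the variance trend leaves a gene's log2 difference as it was. The block alone likewise leaves the anti-LTBR and TNF differences from control unchanged. The signals come with no detection call used here, so how far Nr1h3 and Abcg1, at signals near the array medians, and Cyp7b1 and Ch25h, below them in controls, stand above background was not tested.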
